A study of Mus musculus with 10 samples.

Results

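Transcripts of 10 paired-receptor genes were followed through 5 sorted populations of mouse antigen-presenting cells. The genes are the sialic acid receptors Siglec1, Siglece, Siglecg, Siglech and Cd33, the receptor Sirpa with its ligand Cd47, and the immunoglobulin-like receptors Pirb, Lilrb4a and Lilra5. They were taken by symbol, after estimated reads had been summed per gene, and they are 10 of 22607 genes in the files. The groups were colonic MHCII+ cells and splenic MHCII+ cells, sorted on MHC class II, which shows antigen to helper T cells, and 3 colonic subsets, CD11b+CD11c+, CD11b+ and CD11c+, sorted on 2 integrins. Each group had 2 libraries, all from wild-type C57BL/6 mice of 8 weeks, with no treatment named. The tissue and gate of each group were read from abbreviated sample titles with the help of the design text. How many mice went into a library was not stated in the labels, so the p-values measure spread between libraries, which may be technical.

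Paired receptors come as families of similar proteins that bind the same kind of ligand and signal in opposite directions. Inhibitory members carry tyrosine motifs in the cytoplasmic tail that recruit the phosphatases Ptpn6 and Ptpn11, whereas activating members have short tails and borrow adaptors such as Tyrobp or Fcer1g. Siglecs read sialic acid on cell surfaces, Sirpa reads Cd47 and restrains phagocytosis, and Pirb binds MHC class I. In the intestine, macrophages and dendritic cells carry many of these receptors, and Sirpa is a common marker for telling conventional type-2 dendritic cells from the Sirpa-low type-1 cells.

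On mm10 the genes lie on 4 chromosomes. Sirpa (chr2:129592835-129632228, plus strand) and Siglec1 (chr2:131069220-131086765, minus strand) lie on chromosome 2. Chromosome 7 holds Pirb (chr7:3711409-3720391, minus), Lilra5 (chr7:4237754-4243463, plus), Siglecg (chr7:43408204-43418358, plus), Cd33 (chr7:43524216-43544428, minus), Siglece (chr7:43651070-43660161, minus) and, apart from these, Siglech (chr7:55768178-55778925, plus). Lilrb4a lies at chr10:51490956-51496611 and Cd47 at chr16:49800533-49915010, both on the plus strand.

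Library totals ranged from 12806139 to 41769042 estimated counts, and the lowest count of a member was 30, for Lilra5 in CD11c+ library 1, where Siglec1 had 31 counts. The genes of the sort markers matched the labels in part. Itgam, which encodes CD11b, had 753 and 874 CPM in CD11b+CD11c+ cells and 746 and 770.0 CPM in CD11b+ cells, against 27.1 and 41.7 CPM in CD11c+ cells. Itgax, which encodes CD11c, had 737 and 850 CPM in CD11b+CD11c+ cells, 494 and 577 CPM in CD11b+ cells and 822 and 973 CPM in CD11c+ cells, so the CD11b+ cells were not free of it. The CD11c+ libraries stood apart from each other in macrophage and T cell transcripts. The summed level of 10 macrophage markers was 141 TPM in CD11c+ library 1 and 664 TPM in library 2, against 3739 to 4284 TPM in CD11b+ cells and 4034 to 5407 TPM in CD11b+CD11c+ cells. The sum of 8 T cell markers ran the other way, at 697 TPM in CD11c+ library 1 and 224 TPM in library 2, against 28.9 to 33.3 TPM in CD11b+ cells and 27.5 to 54.1 TPM in CD11b+CD11c+ cells. Results of the 10 members set against CD11c+ cells are therefore also given with each of these libraries left out. In such bulk samples, fewer cells of a type and less RNA per cell cannot be told apart.

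Levels are read counts scaled to TMM-adjusted library sizes (CPM) unless TPM, which is per transcript length, is named. Per length, Lilrb4a was the most abundant member in every group, at 4198 and 4920 TPM in CD11b+CD11c+ cells, although 44.6 to 73.1% of its TPM came from 1 annotated transcript of 120 coding bases. Without that short transcript it had 1213 to 1409 TPM in CD11b+CD11c+ cells and 1429 to 1504 TPM in CD11b+ cells, but 134 to 148 TPM in splenic MHCII+ cells, below Sirpa. Sirpa, Cd47 and Pirb formed the next tier, with Sirpa at 208.5 and 213 TPM, Cd47 at 159 and 166 TPM and Pirb at 138 and 156 TPM in splenic MHCII+ cells. Most Siglecs lay lower, although Cd33 at 91.0 and 119 TPM was above Pirb at 85.7 and 83.4 TPM in CD11b+CD11c+ cells. Siglec1 had the lowest mean TPM of the members in each group, with libraries at 0.112 to 12.5 TPM. In CD11c+ cells Cd47 kept 153 and 143 TPM while Sirpa had 9.94 and 22.6 TPM.

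**Figure D1:**
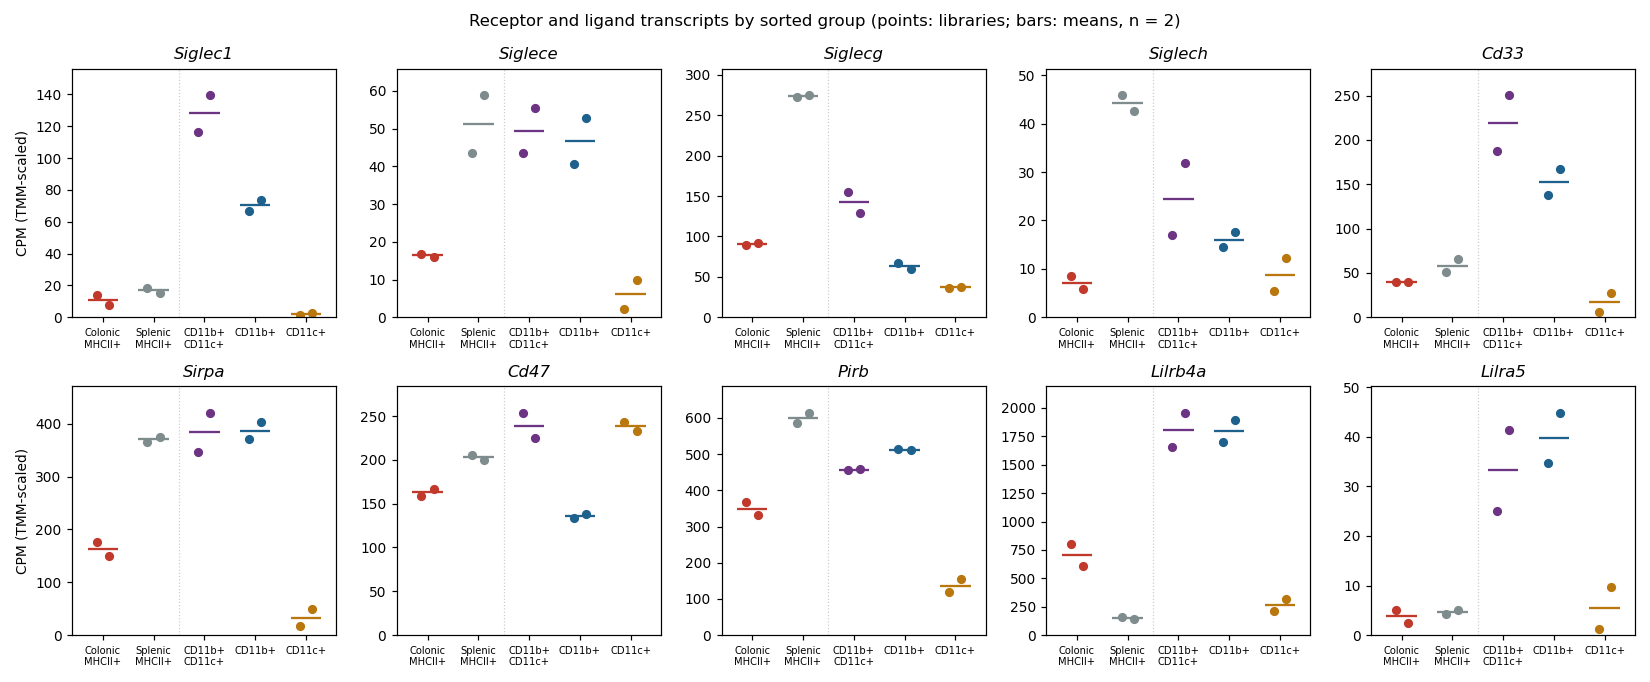
Level of each gene (y axis, CPM on TMM-scaled library sizes, from 0) in the 5 sorted groups (x axis), with points for libraries and bars for means of 2. Lilrb4a is the member that is higher in colonic than in splenic MHCII+ cells, and Cd47 is the member with its lowest level in CD11b+ cells.

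All adjusted p-values are from the quasi-likelihood F test of edgeR with Benjamini-Hochberg adjustment over all genes tested, and a gene was called at an adjusted p under 0.05. Over the 10 members, 1 was higher and 7 were lower in colonic than in splenic MHCII+ cells, where 60.3% of the 15076 genes tested were called, 31.6% higher and 28.7% lower. The median log2 fold change was -0.67 over the members and 0.02 over all genes. In CD11b+ against CD11c+ cells 8 members were higher and 1, Cd47, was lower, where 52.0% of 14225 genes were called, 27.0% higher and 25.0% lower. The member median was 2.88, against -0.02 over all genes. In CD11b+CD11c+ against CD11c+ cells 9 were higher and none lower, where 43.0% of genes were called, 20.4% higher and 22.5% lower, with medians of 2.65 and -0.09. In CD11b+CD11c+ against CD11b+ cells 2 were higher, Siglecg and Cd47, and none lower, where 9.63% of genes were called, 3.79% higher and 5.84% lower, with medians of 0.20 and 0.01. These 3 subset comparisons share libraries. In the last of them fewer genes were called over all when a library of either subset was left out. The count in the last comparison was 1 without CD11b+CD11c+ library 1, 0 without CD11b+ library 1 and 1 without CD11b+ library 2.

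**Figure D2:**
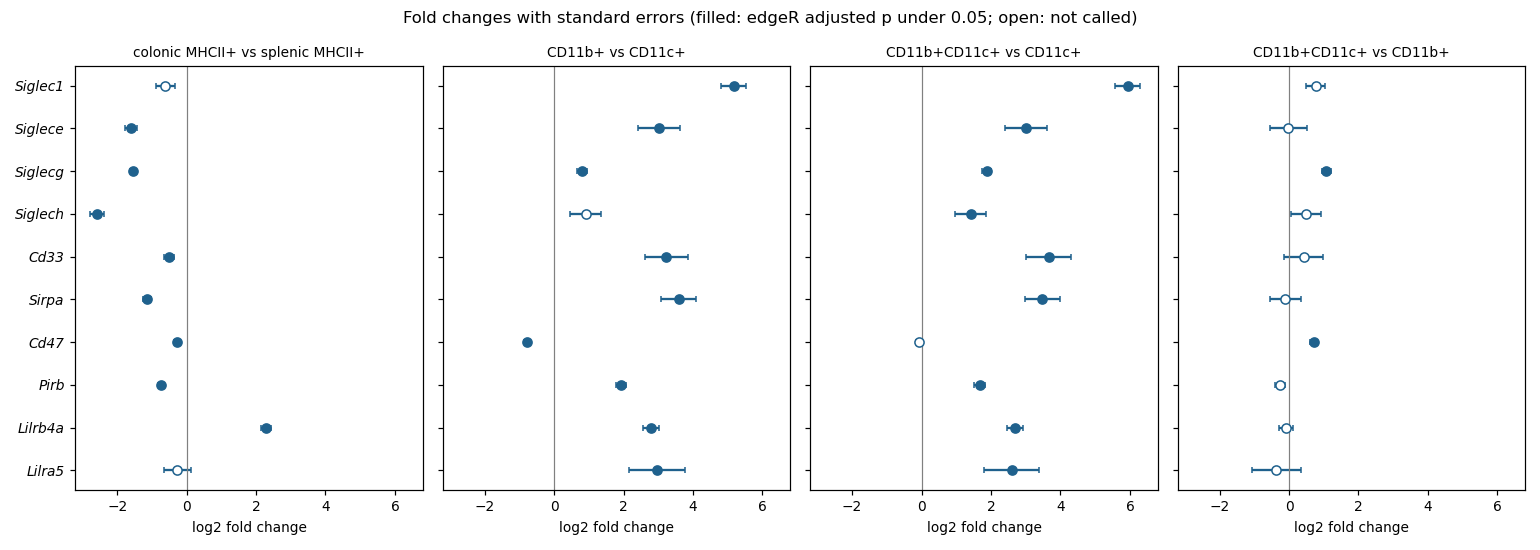
Log2 fold change of each gene (x axis) in the 4 comparisons (panels), with bars for 1 standard error, filled points for an edgeR adjusted p under 0.05 and open points for genes not called. Lilrb4a at 2.29 is the only filled point right of 0 in the colonic against splenic panel, and Cd47 at -0.78 the only one left of 0 in the panel of CD11b+ against CD11c+ cells.

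The sialic acid receptors other than Siglec1 were lower in the colonic than in the splenic MHCII+ gate, and in the colonic subsets each had its lowest mean in CD11c+ cells. Siglec1, a long adhesion receptor of macrophages without an inhibitory motif, showed the widest range. It had 117 and 140 CPM in CD11b+CD11c+ cells, 66.9 and 73.9 CPM in CD11b+ cells and 1.23 and 2.92 CPM in CD11c+ cells. The 3 subsets did not overlap. Siglec1 was 61.2-fold higher in CD11b+CD11c+ than in CD11c+ cells (log2 fold change 5.93 ± 0.36 SE, adjusted p = 0.000339) and 36.0-fold higher in CD11b+ than in CD11c+ cells (5.17 ± 0.35, adjusted p = 0.000322). Leaving out CD11c+ library 1 or 2 gave log2 fold changes of 5.36 and 6.62 for CD11b+CD11c+ against CD11c+ cells, and 4.59 and 5.86 for CD11b+ against CD11c+ cells.

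Between CD11b+CD11c+ and CD11b+ cells the Siglec1 difference did not pass (log2 fold change 0.76 ± 0.28, adjusted p = 0.146). It passed without CD11c+ library 1 or library 2. These libraries are in neither group compared. They enter through the shared estimate of spread, the gene filter, the scaling of library sizes and the adjustment over genes. In the MHCII+ gates Siglec1 had 13.8 and 7.61 CPM in colonic cells, against 18.6 and 15.3 CPM in splenic cells. These groups did not overlap, but the difference of -0.61 ± 0.28 was not called (adjusted p = 0.0982). Without colonic library 1 it was -1.13 and was called (adjusted p = 0.00501), and without colonic library 2 it was -0.29 (adjusted p = 0.248). Without splenic library 1 it was -0.49 (adjusted p = 0.275), and without splenic library 2 it was -0.75 (adjusted p = 0.0999).

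Siglecg, an inhibitory Siglec best known from B cells, had 89.6 and 92.2 CPM in colonic MHCII+ cells, against 273 and 275 CPM in splenic MHCII+ cells. The libraries of each gate were close together and the gates far apart, a fall of 1.55 ± 0.09 on the log2 scale (adjusted p = 2.94e-05). In the subsets it had 156 and 129 CPM in CD11b+CD11c+ cells, 67.2 and 59.3 CPM in CD11b+ cells and 36.3 and 37.7 CPM in CD11c+ cells. All 3 subsets were separate, and Siglecg was called in each pair. It was higher in CD11b+CD11c+ than in CD11c+ cells by 1.87 ± 0.14 (adjusted p = 0.000534), and higher in CD11b+ than in CD11c+ cells by 0.80 ± 0.13 (adjusted p = 0.00445). It was also higher in CD11b+CD11c+ than in CD11b+ cells, by 1.07 ± 0.13 (adjusted p = 0.00713). The last call was lost without CD11b+ library 1 (1.19, adjusted p = 0.0538). With CD11c+ library 1 or 2 left out the rises over CD11c+ cells were 1.82 and 1.90 in CD11b+CD11c+ cells and 0.75 and 0.83 in CD11b+ cells, and each passed the test.

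The summed level of B cell markers did not follow this order in the subsets. The sum of 8 B cell markers was 54.5 to 63.5 TPM in colonic and 909.6 to 1061 TPM in splenic MHCII+ cells, so Siglecg and the B cell markers were both higher in the splenic gate. In the subsets the sum was 23.1 to 33.3 TPM in CD11b+CD11c+ cells, 39.4 to 45.3 TPM in CD11b+ cells and 47.9 to 62.2 TPM in CD11c+ cells, lowest where Siglecg was highest. The highest of them in CD11b+CD11c+ cells was Cd79a, at 12.1 and 9.18 TPM, and Siglecg had 36.5 and 29.3 TPM there. Pax5 had 0.398 and 0.091 TPM in those cells. Single markers could differ from the sum in TPM, as Cr2 had 8.55 and 2.79 TPM in CD11b+CD11c+ cells, against 2.81 and 0.184 TPM in CD11c+ cells. Cr2 was near the floor there, and its mean read level was not higher, at 0.643 CPM in CD11b+CD11c+ and 0.744 CPM in CD11c+ cells. No B cell marker was at 0 in both libraries of a group. The sum of 5 markers of conventional type-2 dendritic cells had the same order as Siglecg in the subsets. It was 628 to 634 TPM in CD11b+CD11c+ cells, 292 to 307 TPM in CD11b+ cells and 86.9 to 121 TPM in CD11c+ cells. The part of B cells or type-2 dendritic cells in the Siglecg differences, between the tissues or the subsets, was not tested.

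**Figure D3:**
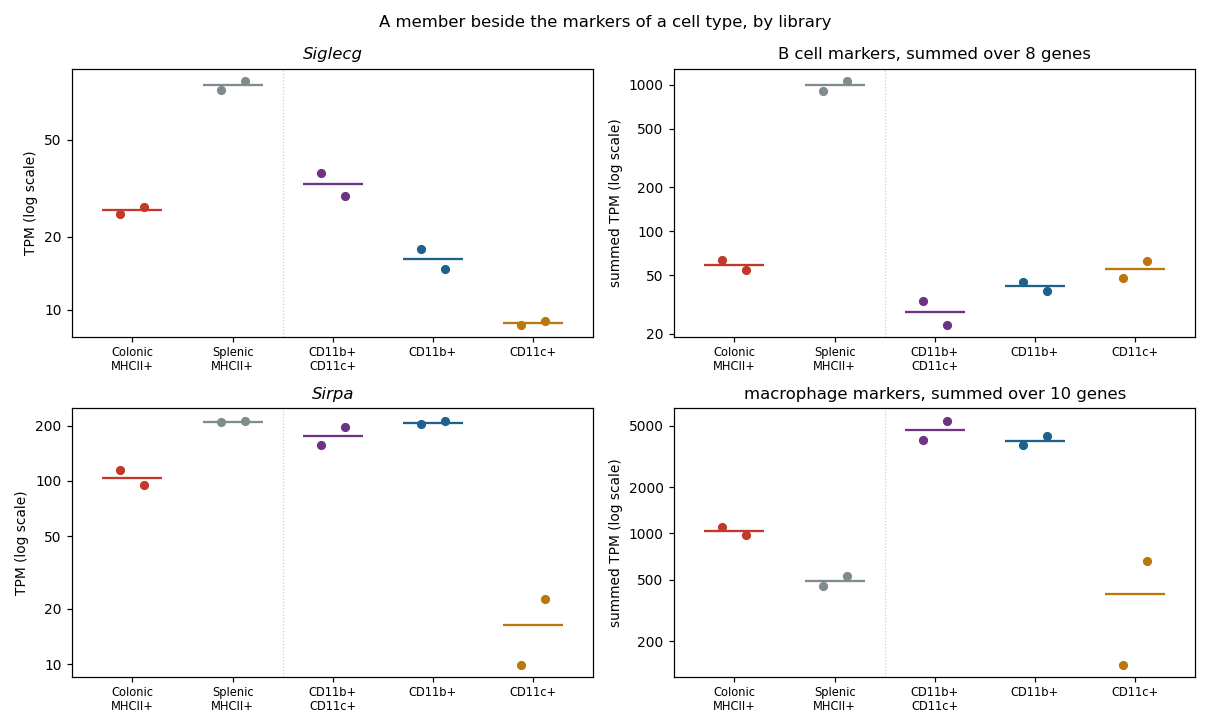
Siglecg and Sirpa (left, TPM, log axes) beside the summed TPM of 8 B cell and 10 macrophage markers (right, log axes) in the 5 sorted groups, with points for libraries and bars for means of 2. Siglecg and the B cell sum are both highest in splenic MHCII+ cells, while CD11b+CD11c+ cells have the most Siglecg of the 3 subsets and the lowest B cell sum.

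Siglech, which marks plasmacytoid dendritic cells in the mouse and signals through Tyrobp, had 8.54 and 5.77 CPM in colonic MHCII+ cells, against 45.9 and 42.6 CPM in splenic MHCII+ cells. It was 5.95-fold lower in the colonic gate (log2 fold change -2.57 ± 0.19, adjusted p = 7.44e-05), the largest fall among the members. In the subsets Siglech had 17.0 and 31.8 CPM in CD11b+CD11c+ cells, 14.5 and 17.6 CPM in CD11b+ cells and 5.33 and 12.2 CPM in CD11c+ cells. CD11b+CD11c+ and CD11b+ cells overlapped, and CD11c+ cells lay below both. The rise in CD11b+CD11c+ over CD11c+ cells was called (1.42 ± 0.44, adjusted p = 0.0439), but not without CD11c+ library 1 (0.90, adjusted p = 0.109), CD11b+CD11c+ library 2 (0.97, adjusted p = 0.204) or either CD11b+ library (adjusted p = 0.0802 and 0.0748). CD11b+CD11c+ and CD11b+ cells differed by 0.50 ± 0.43, not called (adjusted p = 0.528). The difference of CD11b+ from CD11c+ cells was not called (0.92 ± 0.45, adjusted p = 0.128), and it was called without CD11c+ library 2 (1.62, adjusted p = 0.0161).

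Of 8 plasmacytoid markers, 7 were lower along with Siglech in colonic than in splenic MHCII+ cells and 1, Klk1, was higher, at 517 and 404 TPM in colonic, against 8.94 and 8.67 TPM in splenic cells. With Klk1 in it, their summed level was higher in the colonic gate, at 489 to 601 TPM in colonic and 382 to 409 TPM in splenic cells. Pacsin1 had 0.523 and 1.76 TPM in colonic, against 12.1 and 8.00 TPM in splenic MHCII+ cells. In the subsets Pacsin1 had 1.41 and 1.59 TPM in CD11b+CD11c+ cells, 0.176 and 0.210 TPM in CD11b+ cells and 1.63 and 1.73 TPM in CD11c+ cells. Tcf4 had the same order of means as Siglech there, with 47.6 and 60.2 TPM in CD11b+CD11c+ cells, 47.5 and 43.2 TPM in CD11b+ cells and 26.7 and 33.2 TPM in CD11c+ cells. Ccr9, Ly6d, Spib, Cox6a2 and Dntt, like Pacsin1, had their highest subset mean in CD11c+ cells, where Siglech was lowest. Of the 8 markers, 2 were called higher and 5 lower in CD11b+ than in CD11c+ cells, against 27.0 and 25.0% of all genes. In CD11b+CD11c+ against CD11c+ cells 1 was higher and 3 lower, against 20.4 and 22.5% of all genes. The summed level had another order, at 139 to 142 TPM in CD11b+CD11c+ cells, 154 to 209 TPM in CD11b+ cells and 149.7 to 175 TPM in CD11c+ cells, and 1 of the 8 was at 0 in CD11b+ cells. Klk1 made up much of that sum, with means of 59.7 TPM in CD11b+CD11c+, 91.3 TPM in CD11b+ and 37.8 TPM in CD11c+ cells. The part of plasmacytoid cells in the Siglech differences was not tested.

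Siglece, an inhibitory Siglec of neutrophils and macrophages, and Cd33, the mouse counterpart of the human myeloid receptor CD33, had the same order of means in the subsets. Siglece had 43.5 and 55.4 CPM in CD11b+CD11c+ cells, 40.5 and 52.8 CPM in CD11b+ cells and 2.27 and 9.87 CPM in CD11c+ cells. Cd33 had 187 and 250.3 CPM in CD11b+CD11c+ cells, 138 and 168 CPM in CD11b+ cells and 6.32 and 26.9 CPM in CD11c+ cells. For both genes CD11c+ cells lay far below the other subsets, and the CD11c+ libraries were 4.35-fold apart for Siglece and 4.26-fold apart for Cd33. Siglece was higher than in CD11c+ cells by 3.0 ± 0.60 in CD11b+CD11c+ cells (adjusted p = 0.00965) and by 3.02 ± 0.59 in CD11b+ cells (adjusted p = 0.00768). Cd33 was higher by 3.66 ± 0.64 (adjusted p = 0.00609) and by 3.24 ± 0.63 (adjusted p = 0.00721) in the same contrasts. Without CD11c+ library 1 the log2 fold changes were 2.23 and 2.24 for Siglece and 2.93 and 2.50 for Cd33, and without library 2 they were 4.37 and 4.39 for Siglece and 5.04 and 4.62 for Cd33. Each passed the test.

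Between CD11b+CD11c+ and CD11b+ cells neither gene was called, with -0.02 ± 0.53 for Siglece (adjusted p = 0.988) and 0.42 ± 0.57 for Cd33 (adjusted p = 0.692). In the MHCII+ gates Siglece had 16.8 and 16.1 CPM in colonic cells, against 43.6 and 58.9 CPM in splenic cells, a fall of 1.60 ± 0.17 (adjusted p = 0.00035). Cd33 had 40.2 and 39.4 CPM in colonic cells, against 50.7 and 65.7 CPM in splenic cells. The groups did not overlap, and the smaller fall of 0.50 ± 0.15 was called (adjusted p = 0.0226), though not without splenic library 2 (adjusted p = 0.145) or when effective transcript length was an offset (adjusted p = 0.0521). The sum of 8 neutrophil markers was 754 to 1057 TPM in colonic and 14600 to 21840 TPM in splenic MHCII+ cells, 123 to 148 TPM in CD11b+CD11c+, 1157 to 1334 TPM in CD11b+ and 2.29 to 6.92 TPM in CD11c+ cells, where 2 of the 8 were at 0. Siglece was nearly level between CD11b+CD11c+ and CD11b+ cells, and that sum was higher in CD11b+ cells. The part of neutrophils in the Siglece and Cd33 levels, between the tissues or the subsets, was not tested.

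Sirpa, the inhibitory receptor for Cd47, was low in CD11c+ cells and similar elsewhere in the colonic subsets. It had 347 and 420.0 CPM in CD11b+CD11c+ cells, 370.1 and 403 CPM in CD11b+ cells and 16.3 and 49.2 CPM in CD11c+ cells. CD11b+CD11c+ and CD11b+ cells overlapped, and their difference of -0.11 ± 0.45 was not called (adjusted p = 0.904). Sirpa was 11.1-fold higher in CD11b+CD11c+ than in CD11c+ cells (log2 fold change 3.48 ± 0.50, adjusted p = 0.00327) and 12-fold higher in CD11b+ than in CD11c+ cells (3.59 ± 0.50, adjusted p = 0.00237). Without CD11c+ library 1 these were 2.87 and 2.97, and without library 2 they were 4.48 and 4.59. The macrophage marker sum and Sirpa were both higher in CD11c+ library 2 than in library 1. The markers of conventional type-1 dendritic cells ran the other way, with a sum over 8 genes of 195 to 291 TPM in CD11b+CD11c+ cells, 91.8 to 92.4 TPM in CD11b+ cells and 822 to 896 TPM in CD11c+ cells. Their part in the Sirpa difference was not tested.

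In the MHCII+ gates Sirpa had 176 and 150.2 CPM in colonic cells, against 366 and 375 CPM in splenic cells. The gates were separate, and Sirpa fell by 1.14 ± 0.10 on the log2 scale (adjusted p = 0.00017). Macrophage markers went the other way between these gates, with 6 of 10 called higher and 1 lower. Their sums were 979 to 1096 TPM in colonic and 453 to 526 TPM in splenic cells. Other lists fell with Sirpa in the colonic gate. Called lower were 5 of 5 monocyte markers, 7 of 8 neutrophil markers and 3 of 3 markers shared by conventional dendritic cells. None of these was called higher. The fall was not particular to those lists. Also lower were 8 of 8 B cell, 7 of 8 type-1 dendritic cell, 7 of 8 plasmacytoid, 5 of 8 T cell and 3 of 5 splenic macrophage markers. On the type-1, plasmacytoid and T cell lists 1 marker each was higher. All 8 epithelial and all 5 plasma cell markers were higher, and of 5 eosinophil markers 2 were higher and 2 lower. Of 5 markers of conventional type-2 dendritic cells, 2 were called higher and 2 lower. The part of any of these cells in the Sirpa fall was not tested.

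Cd47, a widely expressed membrane protein, behaved unlike its receptor. It had 253 and 225 CPM in CD11b+CD11c+ cells, 134 and 138 CPM in CD11b+ cells and 244 and 233 CPM in CD11c+ cells. CD11b+ cells were below both other subsets, which overlapped each other. Cd47 was lower in CD11b+ than in CD11c+ cells by a log2 fold change of -0.78 ± 0.10 (adjusted p = 0.00158) and higher in CD11b+CD11c+ than in CD11b+ cells by 0.71 ± 0.10 (adjusted p = 0.00882). CD11b+CD11c+ and CD11c+ cells differed by -0.07 ± 0.10, not called (adjusted p = 0.594). The difference of CD11b+ from CD11c+ cells was -0.78 and -0.81 without CD11c+ library 1 or 2, both called, and that of CD11b+CD11c+ from CD11c+ cells was -0.06 and -0.09, neither called. The call between CD11b+CD11c+ and CD11b+ cells was lost without CD11b+CD11c+ library 1 (adjusted p = 0.0534), CD11b+ library 1 (adjusted p = 0.0994) or CD11b+ library 2 (adjusted p = 0.0578).

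In the MHCII+ gates Cd47 had 159 and 167 CPM in colonic cells, against 206 and 200.4 CPM in splenic cells. The libraries did not overlap, and the fall of 0.27 ± 0.09 was called (adjusted p = 0.0408). It was no longer called without colonic library 1 (adjusted p = 0.0758), splenic library 1 (0.151) or splenic library 2 (0.125), or with an effective length offset (0.0993).

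The ratio of Sirpa to Cd47 in TPM put receptor and ligand on 1 scale. It was 0.988 and 0.753 in colonic MHCII+ cells and 1.31 and 1.29 in splenic MHCII+ cells. It was 1.01 and 1.47 in CD11b+CD11c+ cells, 2.19 and 2.36 in CD11b+ cells and 0.0649 and 0.158 in CD11c+ cells. The ratio was thus highest in CD11b+ cells, where Sirpa was high and Cd47 low, and lowest in CD11c+ cells, with no overlap among the 3 subsets. It was given no test.

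The Sirpa transcripts were put in a long class, a short class and a class of others. The short transcripts Sirpa-209 and Sirpa-202 lack coding exons 3 and 4 of the 8 coding exons of Sirpa-201, at chr2:129615447-129615764 (318 bases) and chr2:129616223-129616558 (336 bases) on mm10. They held 34.2 and 45.8% of Sirpa TPM in colonic and 11 and 8.83% in splenic MHCII+ cells, and 29.1 and 22.9% in CD11b+CD11c+, 36.0 and 30.4% in CD11b+ and 21.8 and 31.0% in CD11c+ cells. The splenic libraries were thus below every colonic library. Transcripts with more than 1500 coding bases held 36.9 and 36.2% in colonic and 60.8 and 68.6% in splenic MHCII+ cells. The others were Sirpa-208, which lacks coding exons 3 and 5 to 8 of Sirpa-201, and Sirpa-213, which lacks coding exons 2 to 4. These others held 28.9 and 18.0% in colonic and 28.2 and 22.5% in splenic MHCII+ cells. In the subsets they held 16.6 and 26.0% in CD11b+CD11c+, 19.1 and 24.0% in CD11b+ and 43.4 and 15.2% in CD11c+ cells. kallisto divides reads among overlapping transcripts by a model, so these shares are estimates and were not tested.

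**Figure D4:**
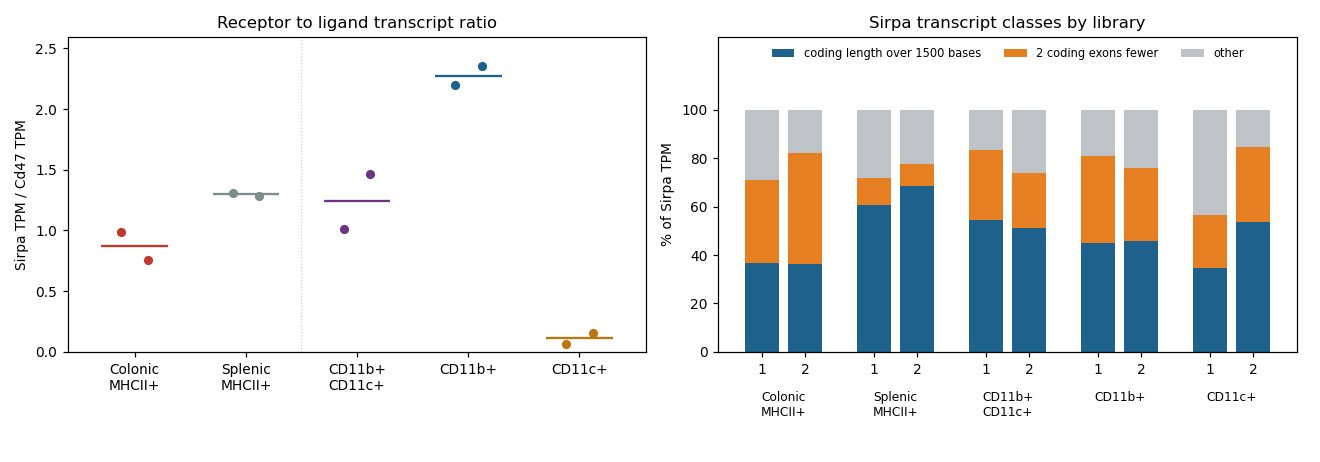
Left, ratio of Sirpa TPM to Cd47 TPM (y axis, no unit) by sorted group, with points for libraries and bars for means of 2. Right, share of Sirpa TPM (y axis, %) in transcripts over 1500 coding bases, in transcripts with 2 coding exons fewer and in others, for libraries 1 and 2 of each group, where the splenic libraries have the smallest orange share, 11 and 8.83%.

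The immunoglobulin-like receptors split between the tissues. Lilrb4a, the inhibitory gp49 receptor, had 804 and 612 CPM in colonic MHCII+ cells, against 158 and 140.5 CPM in splenic MHCII+ cells. It was 4.88-fold higher in the colonic gate (log2 fold change 2.29 ± 0.15, adjusted p = 3.65e-05), the single member that rose there. In the subsets it had 1659 and 1955 CPM in CD11b+CD11c+ cells, 1700.0 and 1897 CPM in CD11b+ cells and 211 and 318 CPM in CD11c+ cells. CD11b+CD11c+ and CD11b+ cells overlapped (-0.09 ± 0.21, adjusted p = 0.824), and both were above CD11c+ cells, by 2.70 ± 0.22 (adjusted p = 0.000702) and 2.79 ± 0.22 (adjusted p = 0.000464). Without CD11c+ library 1 these were 2.41 and 2.50, and without library 2 they were 3.03 and 3.12.

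Lilrb4a lies beside its near copy Lilr4b (chr10:51480632-51486703 on mm10), so reads could be split between them. Lilr4b had 792 and 645 CPM in colonic MHCII+ cells, against 90.8 and 87.1 CPM in splenic MHCII+ cells, a rise of 3.06 (adjusted p = 7.65e-06). With both genes summed, the colonic rise was 2.62 (adjusted p = 1.79e-05).

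Pirb, the inhibitory receptor for MHC class I, had 368 and 331 CPM in colonic MHCII+ cells, against 585 and 614 CPM in splenic MHCII+ cells. The gates were separate and Pirb fell by 0.74 ± 0.10 (adjusted p = 0.000945). In the subsets it had 455 and 458 CPM in CD11b+CD11c+ cells, 514 and 511 CPM in CD11b+ cells and 118 and 154 CPM in CD11c+ cells. It was above CD11c+ cells by 1.67 ± 0.14 in CD11b+CD11c+ cells (adjusted p = 0.000786) and by 1.94 ± 0.15 in CD11b+ cells (adjusted p = 0.00041), and the first of these subsets lay below the other without a call (-0.27 ± 0.14, adjusted p = 0.298). Without CD11c+ library 1 the rises were 1.47 and 1.73, and without library 2 they were 1.88 and 2.14. Pirb is close in sequence to Pira2 and Lilra6. Summing the 3 genes gave -0.71 between the MHCII+ gates (adjusted p = 0.00158), and rises over CD11c+ cells of 1.64 in CD11b+CD11c+ and 1.99 in CD11b+ cells.

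Lilra5, whose human counterpart signals through the Fc receptor gamma chain that Fcer1g encodes, had 25.0 and 41.5 CPM in CD11b+CD11c+ cells, 34.7 and 44.8 CPM in CD11b+ cells and 1.19 and 9.68 CPM in CD11c+ cells. CD11b+CD11c+ and CD11b+ cells overlapped (-0.36 ± 0.71, adjusted p = 0.795), and both were above CD11c+ cells. The rises were 2.60 ± 0.79 in CD11b+CD11c+ cells (adjusted p = 0.0397) and 2.97 ± 0.79 in CD11b+ cells (adjusted p = 0.0222). The CD11c+ libraries were 8.12-fold apart. Without CD11c+ library 1 the rises were 1.68 and 2.04, without library 2 they were 4.72 and 5.08, and all 4 passed the test.

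The Lilra5 call in CD11b+CD11c+ cells was lost without CD11b+CD11c+ library 1 (adjusted p = 0.0745), CD11b+CD11c+ library 2 (0.153), CD11b+ library 1 (0.0784) or CD11b+ library 2 (0.0774). The call in CD11b+ cells was lost without CD11b+ library 1 (adjusted p = 0.0696) or library 2 (0.0926). In the MHCII+ gates Lilra5 had 5.08 and 2.52 CPM in colonic cells, against 4.32 and 5.15 CPM in splenic cells. These overlapped, and the difference of -0.27 ± 0.39 was not called (adjusted p = 0.585). It was 0.11 without colonic library 2.

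The promoter windows of Lilra5, Pirb and Siglech hold letters of motifs that myeloid factors are known to bind, and they are shown because they are the member windows with a match. Each is the 250 bases before the RefSeq start of the gene on GRCm38.p6, written 5′ to 3′ on the strand of the gene, with the motif letters in capitals. Searched on both strands were AGGAAGT, a core bound by the macrophage factor PU.1, an ETS and IRF composite (GGAA, then 2 bases of any kind, then GAAA) and TTGCNNAA, a pair of C/EBP half-sites. RefSeq windows matched 7 of the 10 members, and Siglec1, Sirpa and Lilrb4a were not among them. The Lilra5 window is chr7:4237504-4237753 on the plus strand. The Pirb window is chr7:3720383-3720632 on the minus strand. The Siglech window is chr7:55767934-55768183 on the plus strand.
Lilra5: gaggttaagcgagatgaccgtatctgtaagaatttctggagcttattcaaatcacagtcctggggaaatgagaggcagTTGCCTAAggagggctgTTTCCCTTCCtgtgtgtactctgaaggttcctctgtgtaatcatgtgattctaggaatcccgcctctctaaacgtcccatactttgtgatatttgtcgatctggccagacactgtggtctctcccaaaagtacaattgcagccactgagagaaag
Pirb: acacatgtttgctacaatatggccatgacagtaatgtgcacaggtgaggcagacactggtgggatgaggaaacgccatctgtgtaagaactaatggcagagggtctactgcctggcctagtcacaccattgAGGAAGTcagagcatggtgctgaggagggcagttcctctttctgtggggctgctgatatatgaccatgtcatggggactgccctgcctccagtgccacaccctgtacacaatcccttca
Siglech: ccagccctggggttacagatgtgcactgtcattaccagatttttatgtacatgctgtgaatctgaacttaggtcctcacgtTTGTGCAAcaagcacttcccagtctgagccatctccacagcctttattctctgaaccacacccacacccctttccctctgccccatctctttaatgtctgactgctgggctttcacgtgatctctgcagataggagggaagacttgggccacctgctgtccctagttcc

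In Lilra5 the C/EBP letters lie at -172 to -165 and the composite letters at -155 to -146 on the other strand, counted from the start of the gene. In Pirb the AGGAAGT lies at -119 to -113. In Siglech the C/EBP letters lie at -169 to -162 on the other strand. Of all 32851 windows of this length, 7.69% hold AGGAAGT, 2.30% hold the composite and 9.56% hold TTGCNNAA. The windows of Cd33, Cd47, Siglece and Siglecg hold none of the 3, although Cd33, Siglece and Siglecg were also higher in CD11b+CD11c+ than in CD11c+ cells. A match describes letters and not a bound site.

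The colonic and splenic MHCII+ gates also differed in transcripts that are not specific to these cells. Ptprc, which encodes CD45 of all leukocytes, had 1087 and 1044 CPM in colonic cells, against 2952 and 2933 CPM in splenic cells, and fell by 1.42 (adjusted p = 6.11e-05). The sum of 8 epithelial markers was 2296 to 2558 TPM in colonic and 6.49 to 8.72 TPM in splenic cells, with all 8 called higher. Relative to Ptprc, Siglech and Siglecg stayed lower in colonic cells, with ratios of 0.00786 and 0.00553, against 0.0155 and 0.0145, for Siglech, and 0.0824 and 0.0883, against 0.0925 and 0.0937, for Siglecg. Siglece overlapped, at 0.0155 and 0.0154 in colonic and 0.0148 and 0.0201 in splenic cells. The other members that had fallen were higher per Ptprc in the colon. Sirpa had 0.162 and 0.144 in colonic, against 0.124 and 0.128 in splenic cells, Pirb 0.338 and 0.317 against 0.198 and 0.209, Cd33 0.037 and 0.0377 against 0.0172 and 0.0224, and Cd47 0.146 and 0.160 against 0.0698 and 0.0683. Lilrb4a was higher on either scale, at 0.740 and 0.586 in colonic, against 0.0535 and 0.0479 in splenic cells. Ptprc itself fell, so this reversal holds for Ptprc as the base. H2-Aa, H2-Ab1 and H2-Eb1, which encode MHC class II chains, were nearly level between the gates. Their means were 4276, 4587 and 3815 CPM in colonic cells, against 4078, 4414 and 3939 CPM in splenic cells. Set against these means, Sirpa, Pirb, Cd33 and Cd47 stayed lower in colonic cells. The part of other cells in the differences between the gates was not tested.

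Of the partner genes listed beside the members, 57 on 8 lists, 52 were in the files and 51 passed the count filter. In colonic against splenic MHCII+ cells 13 were higher and 27 lower, and 11 were not called. In CD11b+ against CD11c+ cells 29 were higher and 10 lower, and in CD11b+CD11c+ against CD11c+ cells 27 and 10. In CD11b+CD11c+ against CD11b+ cells 3 were higher and 9 lower. Over all genes tested, in the order given, 31.6, 27.0, 20.4 and 3.79% were higher and 28.7, 25.0, 22.5 and 5.84% lower. The counts on single lists below stand against the same shares. The counts with a library left out, given next, have no such share beside them, so they cannot be set against a change over all genes. In CD11b+CD11c+ against CD11b+ cells fewer genes were called over all when a library of these subsets was left out. The counts without CD11c+ library 1 were 26 higher and 7 lower in CD11b+ against CD11c+ cells and 26 and 7 in CD11b+CD11c+ against CD11c+ cells, and without library 2 they were 30 and 9, and 28 and 7. In CD11b+CD11c+ against CD11b+ cells leaving out either CD11c+ library gave 5 and 14, and leaving out a library of the compared subsets gave 0 to 2 higher and 1 to 4 lower.

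The other Siglecs were 3 measured genes. Cd22, an inhibitory B cell Siglec, had 13 and 15.5 CPM in colonic MHCII+ cells, against 410.2 and 405 CPM in splenic MHCII+ cells, and fell by 4.80 (adjusted p = 2.69e-06). Siglecf, an inhibitory Siglec of eosinophils, had 11.2 and 13 CPM in CD11b+CD11c+ cells, 43.2 and 43.5 CPM in CD11b+ cells and 1.51 and 1.61 CPM in CD11c+ cells. It was lower in CD11b+CD11c+ than in CD11b+ cells by 1.94 (log2 fold change -1.94, adjusted p = 0.00133). The sum of 5 eosinophil markers was 15.8 to 20.4 TPM in CD11b+CD11c+, 147 to 165 TPM in CD11b+ and 11.4 to 18.3 TPM in CD11c+ cells, and its part in the Siglecf difference was not tested.

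Of 6 activating SIRP genes and Cd47 partners, 3 rose and 3 fell in colonic against splenic MHCII+ cells. The 3 that fell were the activating receptors Sirpb1a (log2 fold change -4.36, adjusted p = 2.55e-06), Sirpb1b (-3.34, adjusted p = 6.14e-05) and Sirpb1c (-2.29, adjusted p = 0.000203), which are close copies of each other and of Sirpa. Those that rose were Thbs1, a secreted ligand of Cd47, by 5.66 (adjusted p = 2.55e-06), Calr, which promotes phagocytosis when exposed, by 1.17 (adjusted p = 0.000122), and Qpctl, which modifies Cd47 so that Sirpa can bind, by 0.58 (adjusted p = 0.0487). The Qpctl call was lost without colonic library 2 (adjusted p = 0.141), splenic library 1 (0.248) or splenic library 2 (0.0685). Thbs1 had 3484 and 2945 CPM in colonic, against 69.4 and 61.6 CPM in splenic cells. In CD11b+ against CD11c+ cells 4 of the 6 were higher, with Thbs1 by 4.32 (adjusted p = 0.00154) and Sirpb1c by 6.64 (adjusted p = 0.00011). Calr at -0.05 (adjusted p = 0.786) and Qpctl were not called. Sirpb1c had a mean of 0.142 CPM in CD11c+ cells, near the floor, against 14.9 CPM in CD11b+ cells, so the size of its rise is uncertain. Leaving out CD11c+ library 1 or 2 gave rises of 3.74 and 5.28 for Thbs1 and 6.82 and 6.52 for Sirpb1c.

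The adaptors and enzymes that act below the receptors changed in both directions. Of 3 adaptors of activating receptors, 2 were higher in CD11b+ than in CD11c+ cells, Fcer1g by 2.44 (adjusted p = 0.000214) and Tyrobp by 1.46 (adjusted p = 0.0003). Of 8 phosphatases and kinases, 5 were higher and 2 lower in that contrast, with Ptpn6 higher by 0.89 (adjusted p = 0.00191) and Ptpn11 lower, at -0.73 (adjusted p = 0.00309). In colonic against splenic MHCII+ cells 6 of the 8 were lower and none higher, where 28.7% of all genes were lower and 31.6% higher. Ptpn6 had 120 and 127 CPM in colonic, against 784 and 876 CPM in splenic cells, a fall of 2.70 (adjusted p = 9.61e-06). Csk, a kinase that restrains Src kinases, fell by 1.47 (adjusted p = 7.69e-05).

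Of 9 other inhibitory receptors of myeloid cells, 7 were higher and 1 lower in CD11b+ than in CD11c+ cells. Over all genes 27.0% were higher and 25.0% lower there. Cd300a, a receptor for membrane phospholipids, was higher by 2.60 (adjusted p = 0.00127), and Fcgr2b, the inhibitory Fc receptor, by 2.44 (adjusted p = 0.00132). The values without CD11c+ library 1 or 2 were 2.19 and 3.13 for Cd300a and 2.06 and 2.91 for Fcgr2b, all called. In colonic against splenic MHCII+ cells 1 of the 9 was higher, Fcgr2b, with 169 and 155 CPM in colonic, against 104 and 98.8 CPM in splenic cells (log2 fold change 0.72, adjusted p = 0.00072), and 5 were lower. Fcgr2b was thus the receptor on this list that, like Lilrb4a, was called higher in the colonic gate.

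Genes with the most similar pattern were sought over the 10 libraries by the root mean square distance between log2(TPM + 1) profiles, each centred on its mean, among 11223 genes with at least 5 TPM in their highest group. Nearest to Siglec1 were Nxpe5 at 0.263, P2ry13 at 0.356 and Tmem86a at 0.361. Nearest to Siglecg were Cd209d at 0.223, Clec4g at 0.271 and S100a4 at 0.287. Nearest to Cd33 were Abca9 at 0.190, Npl at 0.270 and Rgl1 at 0.300, and nearest to Siglece were Cybb at 0.233, Hpgd at 0.264 and Ms4a6c at 0.264. The distances of Siglech were wider, at 0.389 for Lmo2, 0.462 for Ankrd46 and 0.478 for Fscn1. Its profile includes transcripts under 300 coding bases. These held 55.5% of Siglech TPM in CD11b+CD11c+ library 2 and 0 to 35.8% in the other libraries.

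Sirpa had Igsf6 at 0.257, Ticam2 at 0.294 and Pilra at 0.307 as its nearest genes, of which Pilra is itself an inhibitory paired receptor on the lists used here. Cd47 lay closest of all members to other genes, with Trpv2 at 0.082, Ift57 at 0.088 and Mdn1 at 0.095. The nearest genes to Pirb were Adssl1 at 0.162, Plxnb2 at 0.164 and Rassf4 at 0.198, and to Lilrb4a Sorbs3 at 0.211, Slc11a2 at 0.224 and Prdm1 at 0.264. Lilra5 lay nearest to the chemokine genes Ccl3 at 0.409 and Ccl4 at 0.412, and to Rcan1 at 0.420. A small distance also reflects a small range over the libraries, as for Cd47.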

How the data were processed

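Directional libraries of polyadenylated RNA were made with NEBNext kits from TRIzol extracts, per the labels' protocols. The deposited tables hold kallisto's estimated counts per transcript and its TPM values, per the file headers. kallisto 0.44.0, sleuth and the build mm10 appear in the submitters' processing notes, which state neither index release nor strand setting. The 66760 transcripts had lengths that were multiples of 3 in 88.9% of cases, so lengths are coding lengths and reads in untranslated regions did not count.

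Of the transcripts, 98.48% matched GENCODE M21 (primary assembly) by identifier, and unmatched ones made up 0.532 to 0.912% of counts. Gene sums of the estimated counts were rounded. The MHCII+ libraries (15076 genes) and the subset libraries (14225 genes) were fitted apart with edgeR 4.0.16 in R 4.3.3 (filterByExpr, TMM, group as the only term, quasi-likelihood F test). The SE is the log2 fold change over the square root of F. All 10 members passed the filter in both sets. CPM values use 1 TMM scaling over all 10 libraries, and the sets were not tested against each other. The scripts were tested on simulated counts.

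Replicate correlations of log2 CPM were 0.982 to 0.994. The counts of replicates differed by chi-square values of 11.4 to 41.0 per gene, so no library was counted as a repeat. Both splenic titles carry the same replicate number, so those libraries were numbered in accession order. Promoter windows are from RefSeq, matched by symbol. kallisto splits reads between near copies, which touches Pirb, Lilrb4a and the Sirpb1 genes.

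The members and lists were chosen with earlier results of these data known. The text names all members, the 2 most abundant genes of each partner list by TPM with others that a member result turns on, and the 3 nearest genes of each member. Sirpb1a, Sirpb1b, Sirpb1c, Qpctl and Ptpn11, and the genes named in the closing observations beyond that rule, were added after their values were seen.

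Alternatives were relative log expression size factors, DESeq2 1.42.0, no count filter, an effective length offset, limma 3.58.1 on log2(TPM + 1) and log2(TPM + 0.1), each library left out, a replicate block, and 1 fit over all 10 libraries. Added after the data were seen were the sum of Pirb with Pira2 and Lilra6, the sum of Lilrb4a with Lilr4b, transcripts of at least 300 bases only, and the partner genes with each library left out.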

Additional observations from a re-analysis of the deposited data

How the results depend on the processing

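Of 650 alternative values for the members, 603 kept direction and call, 25 lost the call, 8 gained it and 14 changed sign, all 14 where no call had been made. The sign changes gave, for Siglece in CD11b+CD11c+ against CD11b+ cells, 0.0205 with relative log expression size factors, 0.0303 with DESeq2, 0.0824 without a count filter, 0.0744 in 1 fit over all 10 libraries, and -0.172 to 0.266 with a library left out. In that contrast Lilrb4a gave 0.0068 without a filter and -0.147 to 0.0668 with a library left out, and Sirpa gave -0.161 to 0.0294 with a library left out. Cd47 in CD11b+CD11c+ against CD11c+ cells gave -0.176 to 0.0787 with a library left out and 0.0124 in 1 fit over all libraries. Lilra5 in colonic against splenic cells gave -0.882 to 0.114 with a library left out. With a library left out, 6 to 8 members were called in colonic against splenic MHCII+ cells, 8 to 10 in CD11b+ against CD11c+, 7 to 9 in CD11b+CD11c+ against CD11c+ and 0 to 3 in CD11b+CD11c+ against CD11b+ cells, where a lone library is assumed to vary like the other groups. No share of all genes called is set beside these counts. Cd33 between the MHCII+ gates was not called in 1 fit over all libraries (adjusted p = 0.37). Siglec1 between these gates was called without a count filter (adjusted p = 0.0394), and in CD11b+CD11c+ against CD11b+ cells with DESeq2 (adjusted p = 0.0356) or without a filter (adjusted p = 0.0385). In limma, Siglech in CD11b+CD11c+ against CD11c+ cells was not called (adjusted p = 0.0569 and 0.0559), and Lilra5 there was not called at the smaller pseudocount (0.0547) or with the length offset (0.0653). The causes were not tested.

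The labels do not say whether a replicate number marks a shared animal or day. Deviations of same-numbered subset libraries correlated at 0.007, -0.052 and, for CD11b+CD11c+ with CD11c+ cells, 0.301. These correlations cannot settle whether the libraries were paired. With a replicate block 10 members were called in CD11b+ against CD11c+, 9 in CD11b+CD11c+ against CD11c+ and 2 in CD11b+CD11c+ against CD11b+ cells, the added call being Siglech (1.00, adjusted p = 0.02). No share of all genes called stands beside these block counts, so they cannot be set against a change over all genes. No paired analysis was possible for the MHCII+ gates because both splenic titles carry the same number. In CD11b+CD11c+ against CD11b+ cells 1370 genes were called over all, against 831 with the length offset, 844 and 743 in limma and 226 to 771 with a library of these subsets left out. With 2 libraries a group and no known number of mice, modest differences cannot be settled here.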

Other observations

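The enzymes that make, attach and remove sialic acid, the sugar that Siglecs bind, moved in both directions between the tissues. Of 16 such genes, 8 were higher and 6 lower in colonic than in splenic MHCII+ cells, against 31.6 and 28.7% of all genes. Genes that make, activate or transport the sugar rose, Gne by 2.71 (edgeR adjusted p = 4.71e-06), Nans by 2.23 (adjusted p = 1.16e-05), Slc35a1 by 2.01 (adjusted p = 3.52e-05) and Cmas by 1.58 (adjusted p = 2.57e-05), while Nanp at 0.24 was not called (adjusted p = 0.375). Gne, which encodes the enzyme that starts the pathway, had 234 and 215 CPM in colonic, against 35.9 and 34.9 CPM in splenic cells. Cmah, which converts the sugar to the form that mouse Cd22 prefers, fell by 1.64 (adjusted p = 7.64e-05). Transferases fell and rose, with St3gal2 at -2.61 (adjusted p = 5.83e-05), St3gal4 at -0.37 (adjusted p = 0.00963), St6gal1 at -0.66 (adjusted p = 0.021) and St3gal6 at 1.19 (adjusted p = 0.00266). Without splenic library 1 the calls of St3gal4 (adjusted p = 0.0517) and St6gal1 (adjusted p = 0.0629) were lost. Epithelial and plasma cell markers were higher in the same colonic libraries, with sums of 2296 to 2558 and 10460 to 10850 TPM in colonic, against 6.49 to 8.72 and 163 to 174 TPM in splenic cells, and their part in these values was not tested.

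In the colonic subsets 5 of the 16 were higher and 5 lower in CD11b+ than in CD11c+ cells, against 27.0 and 25.0% of all genes. Neu1, the lysosomal sialidase, was higher by 2.27 (adjusted p = 0.000405), and St3gal5, which makes the ganglioside GM3, was lower, at -2.56 (adjusted p = 0.000642). St8sia4, a polysialic acid transferase, was lower at -1.50 (adjusted p = 0.000216). Of 3 genes for protein ligands, Cd52 and Spn were lower in CD11b+ than in CD11c+ cells, at -0.26 (adjusted p = 0.0341) and -1.32 (adjusted p = 0.00627). Spn was still called without CD11c+ library 1 (adjusted p = 0.0135) or library 2 (-1.60, adjusted p = 0.00172), and in the same fits Cd52 was at -0.25, not called (adjusted p = 0.0908), and -0.29 (adjusted p = 0.0491). The Cd52 call was also lost without either CD11b+ library (adjusted p = 0.141 and 0.123) or CD11b+CD11c+ library 1 (adjusted p = 0.0505). All 8 T cell markers were lower in CD11b+ than in CD11c+ cells as well, with a median log2 fold change of -4.41, and their part in the Cd52 and Spn values was not tested. Cd24a, a ligand of Siglecg, had 36.8 and 31.3 CPM in CD11b+CD11c+ cells, 71.2 and 64.6 CPM in CD11b+ cells and 72.8 and 70.9 CPM in CD11c+ cells. It was lowest in the subset with the most Siglecg, and lower there than in CD11b+ cells by a log2 fold change of -1.09 (adjusted p = 0.00498). That call was lost without CD11b+ library 1 (adjusted p = 0.056).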
